A study of Mus musculus with 14 samples.

Results

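H2A.Z was examined across the 4 Hox gene clusters of the mouse, in epithelial cells of the embryonic and adult small intestine. The members were all H2A.Z peaks that overlapped 4 windows of the mm9 genome by at least 1 bp: HoxA at chr6:52100000-52220000, HoxB at chr11:96045000-96235000, HoxC at chr15:102740000-102870000 and HoxD at chr2:74495000-74610000. These windows held 96 of the 165455 peaks in all 8 libraries, with 34 in HoxA, 23 in HoxB, 5 in HoxC and 34 in HoxD. They were drawn to hold the 38 listed Hox genes, which run from Hoxa2 to Hoxa13, Hoxb1 to Hoxb13, Hoxc4 to Hoxc13 and Hoxd1 to Hoxd13.

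H2A.Z was mapped by ChIP-seq, the sequencing of DNA precipitated with an antibody against this histone. There were 14 samples: 8 H2A.Z libraries, 2 for each of 4 stages, and 6 input libraries of unprecipitated DNA. The mice were of mixed C57BL/6 CD1 background. Embryonic epithelium was taken at E12.5 and at E14.5 and sorted as EpCAM+, CD31-, CD45- and DAPI-, that is, as living epithelial cells without endothelial or blood cells. The adult cells came from males of 2 months (P60) that carried Lgr5EGFP-Cre-ERT, an allele in which the stem cell gene Lgr5 drives a fluorescent protein and an inducible recombinase. Intestinal stem cells (ISC) were sorted as Lgr5-EGFPhigh, and adult enterocytes (AE), the absorptive cells, by the same EpCAM, CD31, CD45 and DAPI gate as the embryos. That gate names no marker that separates enterocytes from other epithelial cells. The allele and the adult age were shared by ISC and AE and by no embryonic library. Each stage is said to have biological duplicates, with no word on separate animals or pools, so p-values measure only the spread between these libraries. Peak lists hold no expression values, and cell type markers were not analysed here.

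The lists rested on 27835048 to 41274126 tags per H2A.Z library. A pair of libraries stood apart before any Hox result. E14.5 replicate 2 and AE replicate 1 had an estimated fragment size of 71 and 67 bp, near the tag length of 68 bp, and a median peak width of 238 and 388 bp over the whole list, against 191 to 247 bp and 731 to 921 bp in the other 6. They also covered the least sequence, 1.78 and 6.99 Mb against 14 to 32 Mb. List length therefore moved with the Hox values given here, and its part in them was not tested. The embryonic libraries had an input each, whereas the 2 ISC libraries were called against 1 shared input and the 2 AE libraries against another.

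Hox genes encode homeodomain transcription factors that give cells their position along the head-to-tail axis. Within a cluster the genes stand in the order of that axis, from anterior genes such as Hoxb1 and Hoxd1 to posterior genes such as Hoxa13 and Hoxd13, a property called colinearity. In the gut they are best known for patterning its length, with much of their expression in the mesenchyme. Silent Hox genes are typically held by Polycomb repressor complexes over their CpG islands. H2A.Z is a histone variant that replaces H2A in some nucleosomes and is found beside the start sites of active genes, at enhancers, and, in stem cells, at promoters that also carry Polycomb marks.

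RefSeq promoters were matched by symbol for 22 of the 38 genes, with 24 start sites. These were 10 in HoxA, 3 in HoxB, 1 in HoxC and 10 in HoxD, so values over all of them describe mainly HoxA and HoxD. The 250 bases before the start of Hoxb1, Hoxd1 and Hoxd13 are shown because the peaks of HoxB stopped short of its posterior end and the place of HoxD peaks separated embryonic from adult libraries without overlap. Hoxb1 and Hoxd1 stand at the anterior ends of these clusters and Hoxd13 at the posterior end of HoxD. They are read 5′ to 3′ on the plus strand of GRCm38.p6, at chr11:96365508-96365757, chr2:74762730-74762979 and chr2:74667975-74668224, with each CG dinucleotide (CpG) in capitals.
Hoxb1: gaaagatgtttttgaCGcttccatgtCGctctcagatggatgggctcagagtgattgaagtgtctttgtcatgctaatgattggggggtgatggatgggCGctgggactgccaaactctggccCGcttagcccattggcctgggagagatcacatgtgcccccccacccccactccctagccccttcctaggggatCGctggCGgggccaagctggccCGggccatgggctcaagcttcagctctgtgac
Hoxd1: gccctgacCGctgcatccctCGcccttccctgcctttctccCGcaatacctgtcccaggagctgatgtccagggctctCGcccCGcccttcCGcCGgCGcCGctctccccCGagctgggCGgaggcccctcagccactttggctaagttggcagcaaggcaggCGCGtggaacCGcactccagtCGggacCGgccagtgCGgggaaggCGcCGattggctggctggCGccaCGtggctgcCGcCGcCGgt
Hoxd13: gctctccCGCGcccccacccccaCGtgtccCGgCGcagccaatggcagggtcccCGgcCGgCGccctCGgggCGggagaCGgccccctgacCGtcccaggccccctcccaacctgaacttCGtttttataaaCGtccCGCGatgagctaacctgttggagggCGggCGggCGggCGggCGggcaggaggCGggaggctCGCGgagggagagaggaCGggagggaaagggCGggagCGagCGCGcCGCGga
These hold 7, 24 and 31 CpG, so the promoters of both HoxD ends hold more CpG than that of Hoxb1. Over the 300 bases from 250 before to 50 after the start, the ratio of observed to expected CpG had a median of 0.626 in the 24 Hox promoters, against 0.384 in all 32851 promoters of the table. At least 10 CpG stood in 17 of 24 (70.8%) Hox promoters, Hoxb1 with 10 among them, and in 43.5% of all. CpG is its own reverse complement, so both strands give the same count. The range ran from 4 CpG in Hoxa9, Hoxd4 and 1 start of Hoxd11 to 45 in Hoxa13. The peaks are in mm9 and these sequences in GRCm38, so no peak was placed on a promoter or on a single gene, and positions are given from the anterior edge of each window.

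Peaks of all libraries that overlapped or touched were merged into union regions, numbered within each cluster from its anterior edge. There were 34 such regions in the Hox windows, 12 in HoxA, 9 in HoxB, 3 in HoxC and 10 in HoxD, of 45028 in the genome. They were narrow, with a median width of 757.5 bp and a range of 217 to 3215 bp. H2A.Z in the Hox clusters was therefore a set of separated short stretches, and no peak list covered a cluster as a whole. The number of Hox peaks was 24 and 16 in the 2 E12.5 libraries, 7 and 0 at E14.5, 20 and 16 in ISC and 2 and 11 in AE. E12.5 and ISC each had more Hox peaks in both libraries than any E14.5 or AE library.

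**Figure D1:**
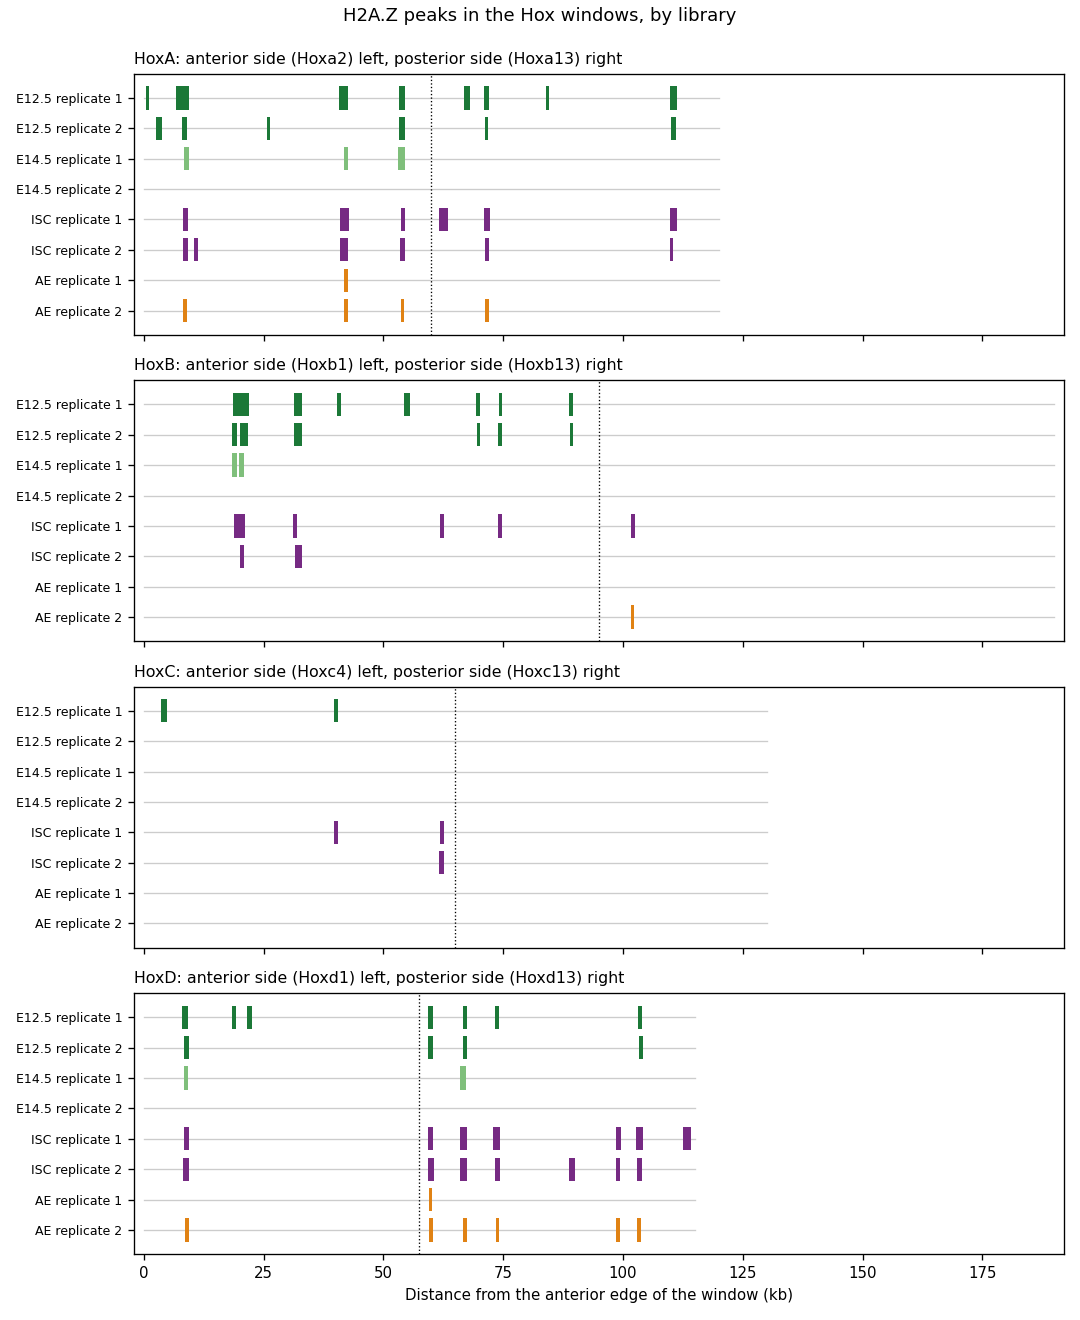
Position of each H2A.Z peak in the 4 windows, with 1 row per library and the distance from the anterior edge in kb on the horizontal axis. Dotted lines mark the middle of each window. Peaks of HoxB lie mostly left of the middle, those of HoxC all left of it, and those of HoxD fall at the anterior edge and again from the middle to the posterior edge.

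HoxA, which holds genes of limb, hindbrain and urogenital patterning such as Hoxa2 and Hoxa13, had the highest mean coverage of the 4 windows. Peaks covered 6.18% and 2.82% of it at E12.5, 1.60% and 0% at E14.5, 4.92% and 3.11% in ISC, and 0.341% and 1.27% in AE. The 4 values of E12.5 and ISC lay above the 4 values of E14.5 and AE on this scale. As a share of each library's own covered sequence, HoxA held 0.0316% and 0.0184% at E12.5, 0.0137% and 0% at E14.5, 0.0208% and 0.0117% in ISC, and 0.00585% and 0.00781% in AE. E14.5 replicate 1 then lay above ISC replicate 2. The embryonic mean was 2.65% ± 2.62 and the adult mean 2.41% ± 2.03 (SD over 4 libraries each; by an exact two-sided permutation test p = 0.943, or 1.00 adjusted over 12 tests). That difference is far smaller than the spread between libraries, which includes the difference between the stages of each side.

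The widest HoxA region was HoxA-3 at chr6:52106922-52109267, 8.09 kb from the anterior edge, with 2346 bp and a peak in 6 libraries. The region with the highest mean fold enrichment was HoxA-6 at chr6:52141040-52142682, 41.9 kb from the edge. Fold enrichment is the caller's ratio of tag pileup to local background, a value of a peak in its own list. In HoxA-6 it was 6.41 and 5.91 in ISC, 5.29 and 4.32 in AE, 2.69 in E12.5 replicate 1 and 2.78 in E14.5 replicate 1, and the other embryonic libraries had no peak there. The ISC peaks stood above 98.7% and 97.4% of all peaks of their lists and the AE peaks above 97.6% and 70.8%, whereas those of E12.5 and E14.5 stood above 7.61% and 22.3%. HoxA-6 was thus among the strongest peaks of 3 of the 4 adult lists and among the weaker ones of the embryonic lists that held it. Lists of unlike length allow no test of that contrast.

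HoxA-10 at chr6:52171264-52171995, 71.6 kb from the edge, came next, with a mean fold of 4.07 over 5 libraries. Its fold was 4.32 and 2.88 at E12.5, 4.44 and 5.08 in ISC and 3.62 in AE replicate 2. With the 6136 strongest peaks of every library, the length of the shortest list, 8 Hox peaks were left, and 6 of them were HoxA-6 in ISC and AE and HoxA-10 in ISC. The others were HoxA-10 in E12.5 replicate 1 and HoxD-4 in ISC replicate 2. The HoxA difference then changed direction, to a mean cover of 0.107% in embryonic and 1.04% in adult libraries (n = 4 each; p = 0.0571 by the exact permutation test and 0.257 after adjustment).

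HoxB, with genes such as Hoxb1 of the hindbrain and Hoxb13 of the tail end, was covered most at E12.5. Peaks covered 3.41% and 2.20% at E12.5, 0.568% and 0% at E14.5, 1.73% and 0.762% in ISC, and 0% and 0.117% in AE. The E12.5 values lay above all 6 others, and the AE values were below both ISC values. As a share of each library's own covered sequence, HoxB held 0.0276% and 0.0227% at E12.5, 0.00773% and 0% at E14.5, 0.0115% and 0.00453% in ISC, and 0% and 0.00114% in AE. E12.5 was thus highest on this scale as well, which divides by the covered sequence of each list. No HoxB peak was among the 6136 strongest of any library, so this order could not be examined in lists of equal length. These stage differences were not tested, and an exact test of 2 libraries against 2 gives no p below 0.333. Embryonic and adult libraries together covered 1.54% ± 1.55 and 0.651% ± 0.791 (SD, n = 4 each; p = 0.371 by the exact permutation test and 0.960 after adjustment).

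The widest HoxB region, and of all 34, was HoxB-1 at chr11:96213254-96216468, with 3215 bp, 20.1 kb from the anterior edge. Peaks covered 2965 and 2163 bp of it at E12.5, 1080 bp in E14.5 replicate 1, 1720 and 368 bp in ISC, and none in AE or E14.5 replicate 2. HoxB-2 at chr11:96202194-96203564 followed with 1371 bp and a peak in both libraries of E12.5 and of ISC alone. HoxB-6 at chr11:96165011-96165388 and HoxB-8 at chr11:96145677-96146088 had a peak in both E12.5 libraries and in no other. These were weak peaks. By fold, those of HoxB-6 stood above 26.4% and 0.654% of all peaks of their lists, and those of HoxB-8 above 9.03% and 27.2%. The highest mean fold belonged to HoxB-3 at chr11:96194046-96194445, with 3.29 in E12.5 replicate 1 alone, and to HoxB-9 at chr11:96132794-96133192, with 2.61 in ISC replicate 1 and 3.74 in AE replicate 2. HoxB-9, 102.0 kb from the anterior edge, was the sole region of HoxB beyond the middle of its window.

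HoxC, which lacks genes of the most anterior groups and begins with Hoxc4, carried little H2A.Z. Peaks covered 1.09% and 0% at E12.5, 0% in both E14.5 libraries, 0.581% and 0.439% in ISC, and 0% in both AE libraries. Of its 3 regions, HoxC-1 at chr15:102865292-102866284 was found in E12.5 replicate 1 and HoxC-2 at chr15:102829699-102830125 in E12.5 replicate 1 and ISC replicate 1. HoxC-3 at chr15:102807473-102808117 had a peak in both ISC libraries, with a fold of 2.48 and 2.38, and in no other library. All 3 lay between the middle of the window and its anterior edge. Embryonic and adult coverage were 0.273% ± 0.546 and 0.255% ± 0.300 (SD, n = 4 each; p = 1.00 by the exact permutation test and 1.00 after adjustment).

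HoxD, best known for the patterning of limbs, genitals and the hindgut by genes such as Hoxd13, had its highest percent covered in ISC. Peaks covered 3.24% and 1.67% at E12.5, 1.11% and 0% at E14.5, 5.00% and 4.12% in ISC, and 0.0696% and 1.75% in AE. Both ISC values lay above all 6 others on this scale. As a share of each library's covered sequence, HoxD held 0.0159% and 0.0104% at E12.5, 0.00915% and 0% at E14.5, 0.0202% and 0.0148% in ISC, and 0.00115% and 0.0103% in AE. E12.5 replicate 1 then lay above ISC replicate 2, so the order of these stages was not the same in every library. The embryonic mean was 1.5% ± 1.35 and the adult mean 2.73% ± 2.24 (SD, n = 4 each; p = 0.343 by the exact permutation test and 0.960 after adjustment).

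The widest HoxD region, HoxD-10 at chr2:74495946-74497200, had 1255 bp and a peak in ISC replicate 1 alone. HoxD-5 at chr2:74542799-74543824 had 1026 bp and a peak in 6 libraries. HoxD-4 at chr2:74549722-74550470, 59.9 kb from the anterior edge, had the highest mean fold, 4.04, and was the one HoxD region with a peak in both AE libraries. Its fold was 3.77 and 3.28 at E12.5, 4.25 and 4.98 in ISC and 3.96 and 3.99 in AE. HoxD-8 at chr2:74510706-74511209, 99.0 kb from the edge, came next with a mean fold of 3.55. It had a peak in both ISC libraries and AE replicate 2, with a fold of 3.72, 3.97 and 2.95, and in no embryonic library.

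**Figure D2:**
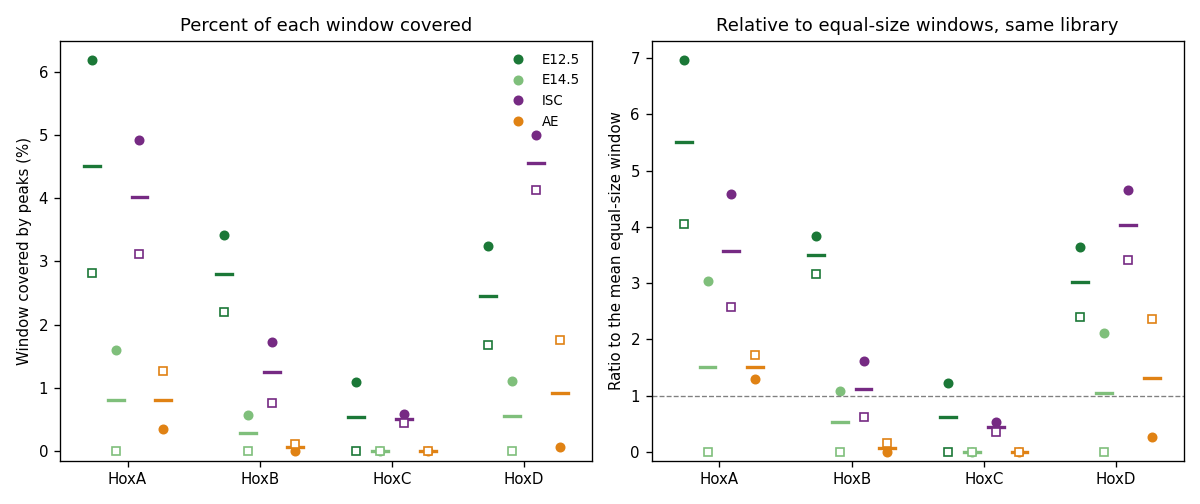
Left, percent of each window covered by peaks. Right, the same divided by the mean over windows of equal size in the same library, with a dashed line at 1. Colours are stages, filled circles replicate 1, open squares replicate 2, and bars the mean of both. HoxB is highest at E12.5 on both scales (3.41% and 2.20% covered). HoxD is highest in ISC by percent covered (5.00% and 4.12%), whereas the ratios of E12.5 and ISC overlap.

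Along the clusters, each window was cut into 10 equal segments, numbered from the anterior to the posterior side. In HoxA, peaks of E12.5 covered a mean of 16.6% of segment 1, whereas those of ISC covered 6.57% there and 12.1% and 11% of segments 4 and 6. In HoxB, segment 2 stood out, with 18.2% at E12.5 and 9.21% in ISC, and the last 4 segments held no peak in any library. In HoxC, the last 5 segments held none. In HoxD, segment 1 was covered by 6.57% at E12.5 and 5.16% in ISC, segments 3 to 5 held no peak in any library, and segment 6 reached 7.12% at E12.5 and 14.6% in ISC. Segments 9 and 10 of HoxD were covered by 1.08% and 3.43% at E12.5 and by 7.20% and 8.61% in ISC. These are means of 2 libraries and were not tested. Segments are equal in length and not in gene content, so an empty one need not hold a Hox gene. In GRCm38 the 250 bases before Hoxb8 and Hoxb1 begin at chr11:96281655 and chr11:96365508, whereas the HoxB window spans 190 kb. Hoxb1 stands at place 1 and Hoxb8 at place 8 from the anterior end. Which segment holds which gene in mm9 was not determined.

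**Figure D3:**
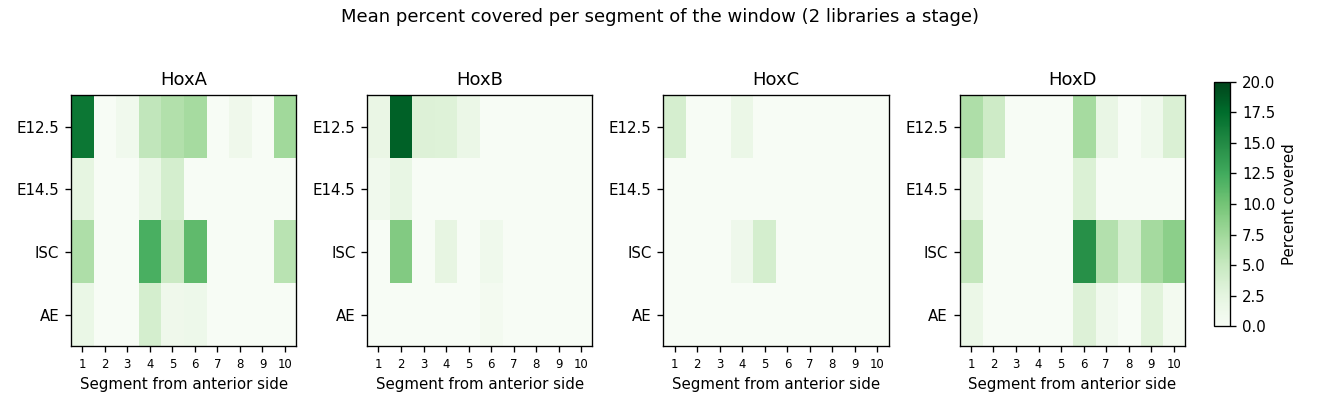
Mean percent covered in each of 10 equal segments of the 4 windows, from the anterior side (1) to the posterior side (10), with 1 row per stage and darker green for more cover. E12.5 is darkest at the anterior side of HoxA (16.6%) and HoxB (18.2%), and ISC in segment 6 of HoxD (14.6%).

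In HoxD, the place of the covered sequence separated embryonic from adult libraries. Its posterior side, from the middle of the window to the edge at the Hoxd13 end, held 49.7% and 65.5% of the covered sequence at E12.5 and 59.9% in E14.5 replicate 1. It held 91.2% and 85.6% in ISC and 100% and 81.9% in AE. All 4 adult values lay above the 3 embryonic ones. E14.5 replicate 2 had no HoxD peak, so it has no share and was left out. The mean was 58.4% ± 8.04 in embryonic (SD, n = 3) and 89.7% ± 7.89 in adult libraries (SD, n = 4), a difference of 31.3 percentage points. The exact two-sided permutation p was 0.0286, the smallest that 35 arrangements can give, and the adjusted p over 12 tests was 0.343. That is the lowest adjusted value a single result can reach in this design, so a lone difference could not have passed the correction. The posterior side is a part of the window and not a set of posterior genes. In GRCm38 the 250 bases before Hoxd13, Hoxd3 and Hoxd1 begin at chr2:74667975, chr2:74711743 and chr2:74762730, with Hoxd8 to Hoxd12 between Hoxd13 and Hoxd3. Which genes lie on which side of the middle in mm9 was not determined.

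In base pairs, the anterior side of HoxD held 1874 and 661 covered bp at E12.5, 512 in E14.5 replicate 1, 503 and 683 in ISC, and 0 and 364 in AE. The posterior side held 1851 and 1257 bp at E12.5, 766 in E14.5 replicate 1, 5242 and 4058 in ISC, and 80 and 1643 in AE. ISC therefore had more cover than E12.5 in the posterior side. In the anterior side ISC had about as much as E12.5 replicate 2 and less than E12.5 replicate 1. The value of AE replicate 1 rested on 1 peak of 80 bp. Without it and E14.5 replicate 2 the difference was 27.8 points (exact permutation p = 0.100, the smallest possible with n = 3 each). For the most posterior of 3 equal parts of the window, it was 17.5 points (exact permutation p = 0.286). With libraries exchanged only within replicate numbers (replicate block), the exact p was 0.0556. With the 6136 strongest peaks of every library, no embryonic library had a HoxD peak, so the share could not be compared.

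**Figure D4:**
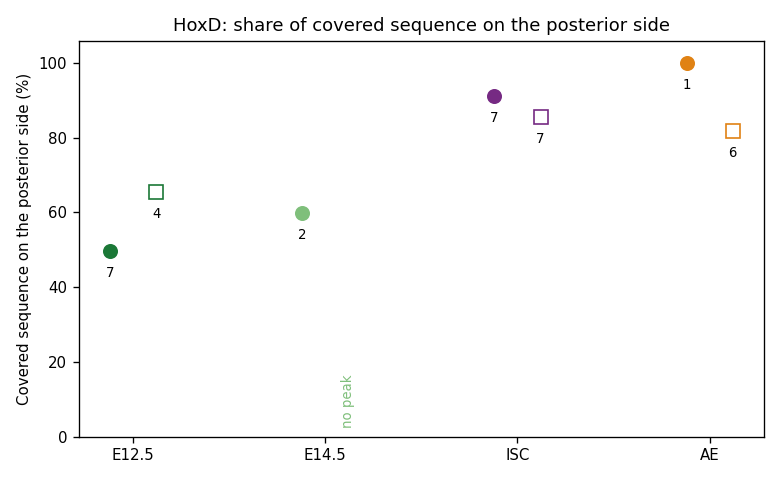
Share of the covered sequence of HoxD that lay in its posterior side, in percent, by stage. Filled circles are replicate 1, open squares replicate 2, and the number under each is its count of HoxD peaks; E14.5 replicate 2 had none. The 4 adult libraries lie at 81.9% to 100% and the 3 embryonic ones at 49.7% to 65.5%.

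The other clusters gave no such split. In HoxA the posterior side held 37.3% and 29.8% at E12.5, 0% in E14.5 replicate 1, 55.8% and 20.3% in ISC and 0% and 20.7% in AE, so that the groups overlapped (difference 1.82 points; exact permutation p = 0.971, n = 3 and 4; adjusted p = 1.00). In HoxB it held 0% in the 3 embryonic libraries with a peak, 12.2% and 0% in ISC and 100% in AE replicate 2, which had a single peak. The HoxB difference of 37.4 points was larger than that of HoxD, but its groups overlapped and it rested on that library (exact permutation p = 0.400, n = 3 each; 6.08 points without AE replicate 2). No measure of coverage, share of a library or position passed the adjusted test in any cluster, and the smallest adjusted p was 0.343, the limit given for HoxD.

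The Hox windows were set beside windows of the same size that tile the rest of the genome. HoxA had a mean cover of 2.53% ± 2.18 (SD, n = 8) against a mean of 0.683% over 21987 windows, and 6.77% of these were covered at least as much. HoxD had 2.12% ± 1.84, a level reached by 10.2% of windows, and HoxB had 1.1% ± 1.24, reached by 25.2%. HoxC, with 0.264% ± 0.408, was below the mean window, above the median one of 0.148%, and reached by 44.9%. HoxA and HoxD thus lay in the upper range of the genome and HoxC near its middle.

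The ratio to the mean window of the same library adjusts for the cover of each list in proportion only. Weak peaks that a shorter list lacks are not restored by it. HoxA had 6.96 and 4.05 times the cover of the mean window at E12.5, 3.03 and 0 times at E14.5, 4.58 and 2.57 times in ISC, and 1.29 and 1.72 times in AE. Its E12.5 replicate 2 and E14.5 replicate 1 thus lay within the range of the ISC libraries. HoxB had 3.84 and 3.16 times the mean window at E12.5, 1.08 and 0 times at E14.5, 1.61 and 0.630 times in ISC, and 0 and 0.159 times in AE, so that both E12.5 libraries lay above all others. Over the mean of both libraries, 5.90% of windows were covered at least as much as HoxB at E12.5 and 34.5% in ISC. HoxD had 3.65 and 2.40 times the mean window at E12.5, 2.11 and 0 times at E14.5, 4.65 and 3.41 times in ISC, and 0.263 and 2.37 times in AE. The E12.5 and ISC libraries of HoxD overlapped, and those of E14.5 and of AE lay far apart. HoxC had 1.23 times the mean window in E12.5 replicate 1, 0.540 and 0.363 times in ISC, and 0 in the other libraries. These ratios were not tested.

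The neighbours of the same size differed from the clusters in both directions. Those of HoxA had 0.568% ± 0.751 on the anterior and 0.519% ± 0.573 on the posterior side (SD, n = 8), below HoxA itself. HoxB had a posterior neighbour of 2.94% ± 1.82, above the cluster, and an anterior one of 0.150% ± 0.189. HoxC had 0% on the posterior and 1.86% ± 1.24 on the anterior side. HoxD had 1.86% ± 1.08 on the posterior and 0.981% ± 0.191 on the anterior side. The empty posterior part of the HoxB window therefore adjoined a window rich in H2A.Z, and that of the HoxC window one without a peak in any library.

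**Figure D5:**
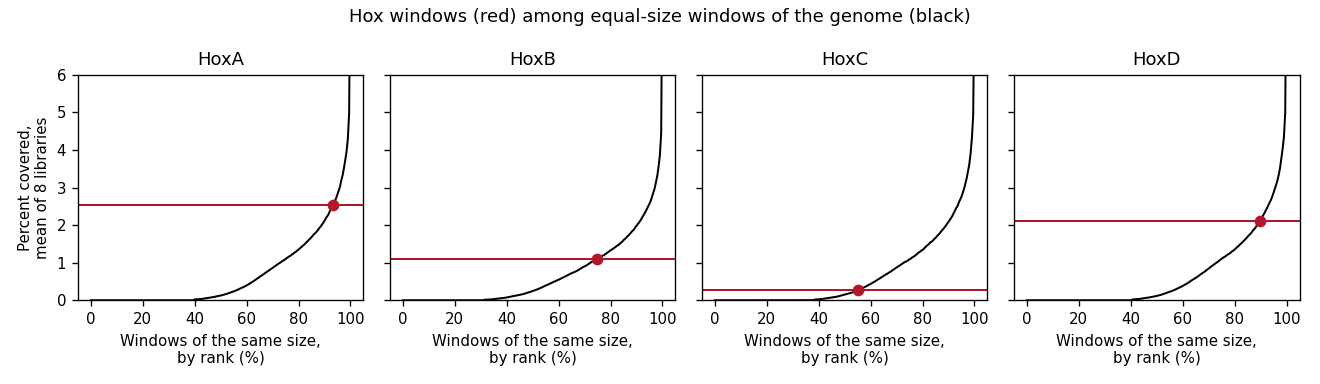
Cover of all windows of the same size as each cluster (black, ranked from lowest to highest, in percent of windows; mean percent covered over 8 libraries on the vertical axis) with the Hox window in red. HoxA and HoxD lie near the top of the ranking, where 6.77% and 10.2% of windows reach them, and HoxC in its middle.

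Regions were then compared between stages. A region was called where both libraries of a stage had a peak in it and neither library of the other did. From E12.5 to E14.5, 8 of the 34 Hox regions (23.5%) were called in E12.5 alone, 4 of them in HoxB, 2 in HoxA and 2 in HoxD, against 10.4% of all 45028 regions. They were HoxA-10, HoxA-12, HoxB-2, HoxB-6, HoxB-7, HoxB-8, HoxD-4 and HoxD-9. None was called in E14.5 alone (background 0.127%). E14.5 replicate 2 had no Hox peak, so no Hox region could be called for E14.5, or for all 4 embryonic libraries, and the absence at E14.5 rests on replicate 1. All 6 Hox regions with an E14.5 peak also had an E12.5 peak, as did 92.7% of all regions with an E14.5 peak.

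Between E14.5 and ISC, 8 Hox regions (23.5%) were called in ISC alone, near the background of 21.8%. No call for E14.5 alone was possible (background 0.247%). Of these 8, 4 lay in HoxD (HoxD-4, HoxD-6, HoxD-8 and HoxD-9), 2 in HoxA (HoxA-10 and HoxA-12), 1 in HoxB (HoxB-2) and 1 in HoxC (HoxC-3). The E14.5 libraries are shared by this comparison and the one with E12.5, so the same absence counts in both. Between ISC and AE, 4 Hox regions (11.8%) were called in ISC alone, against 15.5% of all regions. They were HoxA-12, HoxB-1, HoxB-2 and HoxC-3. None was called in AE alone (background 0.233%), and all 11 Hox regions with an AE peak also had an ISC peak, as did 91.7% of all regions with an AE peak. Both overlaps are near the background.

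Between E12.5 and ISC, the regions called in E12.5 alone were HoxB-6 and HoxB-8 (5.88% of Hox regions, near the background of 6.52%), and those in ISC alone HoxC-3 and HoxD-8 (5.88%, background 14.1%). With any peak counted, 12 Hox regions (35.3%, background 18.5%) had a peak in an E12.5 library and none in ISC, and 8 (23.5%, background 32.3%) the opposite. No Hox region had a peak in all 4 adult and no embryonic library, against 1.80% of all regions. The opposite was not possible in the Hox windows (background 0.193%). Without AE replicate 1, HoxD-8 was called on the adult side, beside 6.17% of all regions.

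Counts of Hox regions rose when some single libraries were left out, and so did the share of all regions. Leaving out E14.5 replicate 2 or AE replicate 1 changed none of the counts in the comparisons below. Called in E12.5 and not at E14.5 were 18 of 32 when E12.5 replicate 2 was left out (all regions, 23.5%). They were 13 of 34 without E14.5 replicate 1 (31.8%) and 10 of 26 without E12.5 replicate 1 (16.5%). Called in ISC and not at E14.5 were 14 of 34 without E14.5 replicate 1 (42.8%) and 14 of 32 without ISC replicate 2 (30.9%). Without ISC replicate 1 they were 10 of 31, below the share of all regions (38.6%). Called in ISC and not in AE were 12 of 34 without AE replicate 2 (29.7%), 9 of 32 without ISC replicate 2 (22.7%) and 6 of 31 without ISC replicate 1 (31.9%). Between E12.5 and ISC, leaving out E12.5 replicate 2 gave 10 of 32 in E12.5 alone (15.1%) and leaving out E12.5 replicate 1 gave 4 of 26 (11.5%). Those of ISC alone numbered 6 of 32 when ISC replicate 2 was left out (21.1%), 4 of 31 when ISC replicate 1 was (29.0%) and 4 of 26 when E12.5 replicate 1 was (20.2%).

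At E12.5, replicates shared a smaller part of their regions in the Hox windows than in the genome, whereas in ISC the part was near that of the genome. Both E12.5 libraries had 13 of the 26 Hox regions of either (50.0%, against 68.3% of all regions), and both ISC libraries 14 of 22 (63.6%, against 70.0%). Both AE libraries had 2 of 11 (18.2%, against 56.1%), HoxA-6 and HoxD-4, and both E14.5 libraries 0 of 6, against 30.7%. These 2 stages could give no higher share. AE replicate 1 had 2 Hox peaks, both of them shared, and E14.5 replicate 2 had 0. At least 6 libraries had a peak in 6 Hox regions (17.6%, against 28.3%), 3 in HoxA (HoxA-3, HoxA-6 and HoxA-7) and 3 in HoxD (HoxD-1, HoxD-4 and HoxD-5). A single library had 15 (44.1%, against 30.5%). Neighbouring regions of 1 cluster are not independent, and these shares are given as descriptions.

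Most Hox peaks were weaker than the median peak of their own list, and their median width was below that of the list in all 7 libraries with a Hox peak. Of the 96, 30 had a fold above the median of their list and 28 a −log10 q above it. In E12.5 replicate 1 the median fold of Hox peaks was 3.12, against 3.57 in the list, and their median width 540.5 bp against 798.0 bp. In ISC replicate 1 the fold was 3.11 against 3.27 and the width 641.5 bp against 921.0 bp. In ISC replicate 2 the fold was 3.30 against 3.28, the nearest to its list among the 6 libraries with more than 2 Hox peaks, with a width of 577.0 bp against 821.0 bp.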

How the data were processed

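H2A.Z peaks of 8 libraries were analysed. Per the file headers, the authors called peaks for each library separately against input with MACS 2.1.0.20140616 in broad mode (q cutoff 0.05, model fold 10 to 30). The submitters' processing notes name bcl2fastq 1.8.4, Bowtie 1.1.2, SAMtools 1.2 and mm9. The deposited pileup is a coverage signal, the deposited fold enrichment a ratio to local background, and the deposited −log10 p and −log10 q measure the evidence for a peak in its list. Every list holds peaks down to a −log10 q of 1.06 or lower, weaker than the stated q cutoff. The 6 inputs entered only through the authors' calling.

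Peaks were clipped to the Hox windows, and covered bp, percent covered, share of a library's covered sequence and share on the posterior side were computed (Python 3.11.15, NumPy 2.4.6, pandas 2.3.3). Gene order and promoters came from RefSeq (GRCm38.p6). Embryonic and adult libraries were compared by an exact permutation test, two-sided, whose smallest p is 0.0286, and p-values were adjusted by Benjamini-Hochberg over 12 tests. The test was checked on simulated data. Named regions were the 2 widest and the 2 of highest mean fold per cluster and those called between stages. Members, lists, tests and alternatives were chosen with earlier results of these data known. Alternatives were other peak lists, overlap rules, left-out libraries and a replicate block. Intervals for single peaks were not computed, since the lists give no counts.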

Additional observations from a re-analysis of the deposited data

Results flagged for a closer look

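In HoxC, E12.5 replicate 1 lay far from the other 3 embryonic libraries. Its peaks covered 1.09% of the window, and the window held 0.00605% of its covered sequence, whereas the other 3 embryonic libraries had no HoxC peak and a value of 0. These were 2 of 18 groups of 4 libraries examined. The rule, based on the gap to the nearest library, marks about 1 group in 20 by chance where values are normally distributed. With 3 of 4 values at 0 it marks any other value, so that rate does not apply to these groups. Both marked groups come from the same 2 peaks.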

How the results depend on the processing

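Of 288 values under alternative settings, 148 were differences with a test and 140 were counts of regions or percents of windows. Of the differences, 128 kept their direction and side of the threshold and 20 changed direction. Among the counts and percents, 32 moved. Some values were fixed in advance. No Hox peak crossed a window edge, so asking for 50% of a peak inside the window changed nothing, and the replicate block can change p-values alone. Adjusted p-values say nothing about stability here, since a lone result at the smallest p reaches 0.343 over 12 tests. Among settings other than left-out libraries, the changes of direction were all in HoxA. HoxB and HoxC had no peak left at a −log10 q of at least 10 or with equal numbers of peaks, and HoxB had none in the most posterior of 3 equal parts, so no direction could be given there. With peaks of a −log10 q of at least 10, the adult minus embryonic difference was 0.863 points of coverage, 0.0109 points of library share and -75.5 points of posterior share. With equal numbers of peaks it was 0.930, 0.0133 and -86.1. Both posterior shares rest on 1 embryonic library with 1 peak, so they show no change of direction between groups. The posterior share difference was -5.76 with the most posterior of 3 equal parts and -0.694 by share of peaks, a setting added after seeing the data. At a −log10 q of at least 10 and with equal numbers of peaks, HoxD kept 1 peak, HoxD-4 in ISC replicate 2. No embryonic library had a HoxD peak there, so the posterior share of HoxD could not be compared in either setting.

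Leaving out single libraries gave differences in coverage of -1.12 to 0.938 points in HoxA, -1.41 to -0.271 in HoxB, -0.127 to 0.255 in HoxC and 0.475 to 2.12 in HoxD. Library share differed by -0.00971 to 0.000815 points in HoxA, -0.000916 to 0.00111 in HoxC and -0.000196 to 0.00625 in HoxD. Posterior share differed by -9.37 to 9.88 points in HoxA, 6.08 to 56.1 in HoxB and 26.9 to 34.9 in HoxD.

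Shorter lists left few Hox regions, 4 at a −log10 q of at least 10 and 3 with equal numbers of peaks. In the former, 0 E12.5 regions were absent at E14.5 (13.2% of all regions) and 0 in ISC (1.30%). Of the ISC regions, 2 were absent at E14.5 (62.9%), 2 in AE (51.0%) and 1 at E12.5 (26.5%). With equal numbers of peaks, 0 E12.5 regions were absent at E14.5 (5.15% of all regions) and 0 in ISC (8.15%). Of the ISC regions, 2 were absent at E14.5 (8.76%), 1 in AE (6.08%) and 1 at E12.5 (8.13%). There, 1 adult region (HoxA-6) was absent in embryonic libraries (2.22% of all regions). Without both libraries of narrow peaks the count of adult regions absent in embryonic libraries was 1 as well (HoxD-8, beside 6.19% of all regions). With 50% of a region covered, 8 of 34 ISC regions were absent in AE (18.9% of all regions) and 4 at E12.5 (16.0%). Without single libraries the ranges were 8 to 18 (E12.5 absent at E14.5), 8 to 14 (ISC absent at E14.5), 4 to 12 (ISC absent in AE), 2 to 10 (E12.5 absent in ISC), 2 to 6 (ISC absent at E12.5) and 0 to 1 (adult absent in embryonic). The shares of all regions that belong to the upper ends are given in the Results and rose as well.

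Among windows with a peak, 11.2%, 36.6%, 72.4% and 17.1% reached HoxA, HoxB, HoxC and HoxD. At a −log10 q of at least 10, 12.9% of windows reached HoxA and 27.5% reached HoxD.

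Nothing states that shared replicate numbers mark a batch. The replicate differences of 2 stages correlated across 21987 windows at -0.723 to 0.444. The libraries of narrow peaks, at E14.5 and in AE, carry opposite replicate numbers and covered the least sequence. These correlations therefore cannot show whether the numbers pair the libraries. With the replicate block the HoxD posterior share gave an exact permutation p of 0.0556 (adjusted 0.667). Except where the shorter lists or left-out libraries account for it by construction, the cause of these changes was not tested.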
